A study of Mus musculus with 10 samples.

Results

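The 7 loci described here (CT010467.1, Gm42418, AY036118, Gm26917, Cmss1, Filip1l and Lars2) were picked by name from the 15899 genes of a RIP-seq matrix of MEX3A, an RNA-binding protein, in mouse neural stem cells. The first 4 form a cluster on chromosome 17, in which the matrix gives the biotype rRNA to CT010467.1 and lincRNA, long intergenic noncoding RNA, to the other 3. Cmss1, Filip1l and Lars2 were added because their values are among the highest of the matrix, so the height of these values is a description and was not tested. The working name given to the 7, loci collecting rRNA-like reads, was checked against the annotation and sequence of the genome. CT010467.1, Gm42418 and AY036118 overlap an annotated 18S-related pseudogene, Gm26917 lies just upstream of it, and for Cmss1, Filip1l and Lars2 no match to the cluster was found, as given below.

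RIP-seq sequences the RNA that comes down with a protein in an immunoprecipitation (IP). All cultures were neurospheres grown with EGF and FGF from the subependymal zone (SEZ) of 10 weeks old mice. FLAG libraries came from Mex3aFLAG/FLAG cultures, in which the endogenous MEX3A protein carries a FLAG peptide, and WT libraries from untagged cultures put through the same anti-FLAG IP, so that what they hold is background of the IP. Each genotype was processed after formaldehyde crosslinking (2 FLAG and 2 WT libraries) and without it, in native conditions (3 FLAG and 3 WT libraries). The methods call these biological replicates. The cultures are a mix of stem and progenitor cells and the tag marks every cell that makes MEX3A. In such bulk samples, fewer cells of a type and less RNA per cell cannot be told apart. The stem and progenitor markers Egfr and Slc1a3 had mean log2 values of 10.46 and 8.48, while Mog, Mobp, Mag and Mbp of mature oligodendrocytes and Cldn5 and Cdh5 of endothelium had no row in the matrix. Pecam1 of endothelium had 0.24, and of the ependymal markers Foxj1 had 0.98, Ak7 had 0.77 and Ccdc153 had no row. Against a median of 2.84 for all genes, the neuronal markers Rbfox3, Syt1 and Snap25 had 3.88, 2.07 and 1.24 and the microglial markers Cx3cr1, P2ry12 and Csf1r had 4.18, 3.71 and 0.34, while Slc17a7 and Aif1 had no row.

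Ribosomal RNA is made by RNA polymerase I as 1 long precursor that holds the 18S, 5.8S and 28S rRNAs between transcribed spacers, and it is by far the most abundant RNA of any cell. The repeats that encode it are mostly absent from the assembled mouse chromosomes, so reads from rRNA tend to pile up on the few partial copies that were assembled and on the gene models drawn over them. Libraries made with random hexamers and without poly-A selection, as here, keep these reads. The mitochondrial ribosome has its own rRNAs, encoded by mt-Rnr1 and mt-Rnr2 in the mitochondrial genome.

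The cluster spans 5815 nt at chr17:39843013-39848827 (GRCm38). Gm26917 (3329 nt, plus strand) lies upstream and ends 11 nt before CT010467.1 (2475 nt, minus strand). Gm42418 (1831 nt, plus strand) lies wholly within the body of CT010467.1, and AY036118 (923 nt, minus strand) lies wholly within both. RefSeq places in the same stretch Rn18s-rs5, a pseudogene related to the 18S rRNA, on the plus strand at chr17:39846354-39848202, and draws AY036118 at another position (chr17:39848112-39898385). A pair of plus-strand stretches, each as long as the 75-base words compared below, show where the annotations meet. The first crosses the 3′ end of AY036118, a minus-strand gene, at chr17:39847076-39847150, with capitals for the 38 bases that lie in CT010467.1, Gm42418 and AY036118 at once; the lower-case bases lie in CT010467.1 and Gm42418. The second, at chr17:39846310-39846384, crosses the end of Gm26917, with capitals for the 11 bases that belong to none of the 4 loci.
Plus strand at the 3′ end of AY036118: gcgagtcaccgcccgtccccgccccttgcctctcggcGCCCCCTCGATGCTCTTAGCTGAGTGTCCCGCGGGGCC
Plus strand at the end of Gm26917: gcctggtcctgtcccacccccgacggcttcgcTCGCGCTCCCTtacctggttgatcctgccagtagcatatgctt

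**Figure D1:**
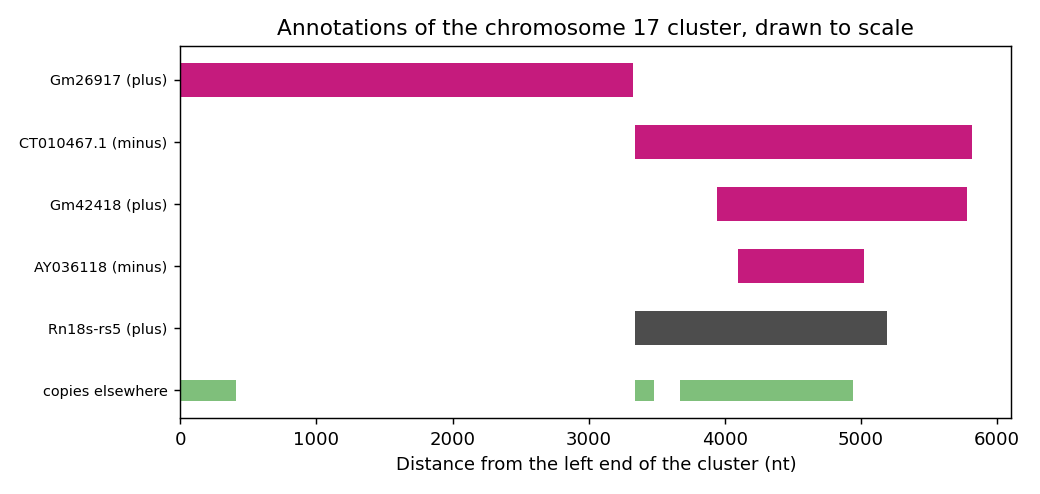
Position of the 4 chromosome 17 loci (pink), of the RefSeq 18S-related pseudogene Rn18s-rs5 (grey) and of the stretches with a copy elsewhere in the genome (green), along the distance in nt from the left end of the 5815-nt cluster. Gm26917 stands alone, while CT010467.1, Gm42418 and AY036118 lie over each other on both strands.

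A read within AY036118 thus also lies in CT010467.1 and Gm42418: all 923 of its bases are exonic in CT010467.1 and in Gm42418. On the strand of AY036118, CT010467.1 shares all of them, and 99.5% of the exon of Gm42418 lies under CT010467.1 on the opposite strand. Whether reads were counted by strand, and how a read in several genes was treated, is not given in the sources used here, so the 3 values cannot be read as 3 separate RNAs. Gm26917 shares no exon base with them.

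Copies of the cluster were sought in the genome with blastn at 90% identity or more over at least 50 bases. Of 8 matches outside the cluster, the longest was on chromosome 6 (901 nt at 98.2% identity, chr6:3200770-3201670) and lay in no gene of the matrix. Only 2 genes of the matrix held a match, 0.0126% of all gene bodies, both within introns. One was Gnb1l, which carries at chr16:18533192-18533331 an exact copy of 140 bases of the cluster. It is shown here as the longest exact copy, from the plus strand of chr17:39846352-39846491, with capitals for the bases inside Rn18s-rs5.
Stretch also found in Gnb1l: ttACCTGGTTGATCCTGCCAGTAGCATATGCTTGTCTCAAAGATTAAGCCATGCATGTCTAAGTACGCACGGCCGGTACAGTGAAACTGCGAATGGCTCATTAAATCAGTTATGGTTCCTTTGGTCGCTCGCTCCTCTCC

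The mean log2 value of Gnb1l, 4.26, was far under that of the cluster, and that of Tor1aip2, with a 67-nt match at 97.0% identity, was 4.87. Neither Cmss1, Filip1l nor Lars2 held a match. No 75-base word from within the 4 chromosome 17 loci, on either strand, occurred in the bodies of these 3 genes. None was shared between Cmss1 or Filip1l and Lars2. They also differed in base composition, with 42.1%, 42.0% and 44.0% G and C in the bodies of Cmss1, Filip1l and Lars2 against 54.4% to 69.1% in the 4 chromosome 17 loci. A partial 28S record of the reference (420 nt) had no match at these limits in any gene of the matrix. The cluster holds no annotated 28S, and a whole 28S sequence was not used here, so a match of Cmss1, Filip1l or Lars2 to the rest of 28S was not tested.

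CT010467.1, Gm42418 and AY036118 were the 3 highest genes of every library. CT010467.1 had a log2 value of 16.90, Gm42418 of 16.50 and AY036118 of 16.34 in all 10 libraries. These values do not vary because the highest 18 values are the same in each library, as quantile normalization leaves them, and only the gene that holds each rank can change. Their difference between FLAG and WT, or between protocols, is therefore 0 by construction and no test applies to it. AY036118 stood 2.55 above the value at rank 4 of each library on the log2 scale, or 5.86-fold. Together the 3 loci made up 31.4% of the summed linear values of each library, also by construction, and the 7 loci made up 32.8% (WT native 3) to 36.1% (WT crosslinked 1). Since overlapping loci may count the same reads more than once, these are shares of the table and not of the RNA.

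Gm26917, Cmss1, Filip1l and Lars2 ranged from rank 4 to rank 68. In the order of mean log2 values over the 10 libraries, Lars2 (13.13 ± 0.55, SD) and Cmss1 (13.00 ± 1.10) came at ranks 4 and 5, followed by Npas3 (12.93) and Nav2 (12.92), which are no members. Filip1l (12.87 ± 1.08) was at rank 8 and Gm26917 (12.82 ± 0.72) at rank 9. The neighbours in this order differ by less than their SD. Just under them was Malat1, a nuclear long noncoding RNA, at 12.48, followed by Oxr1 and Cdk8, both at 12.28. Length changes the order. Per kb of merged exon, mean log2 levels were 16.46 for AY036118, 15.63 for Gm42418, 15.60 for CT010467.1, 12.002 for Cmss1, 11.09 for Gm26917, 10.45 for Filip1l and 9.66 for Lars2. Per kb of gene body, introns included, Cmss1, Filip1l and Lars2 had 4.75, 5.08 and 6.55, in the reverse order, whereas the 3 overlapping loci stayed at 15.60 or more.

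**Figure D2:**
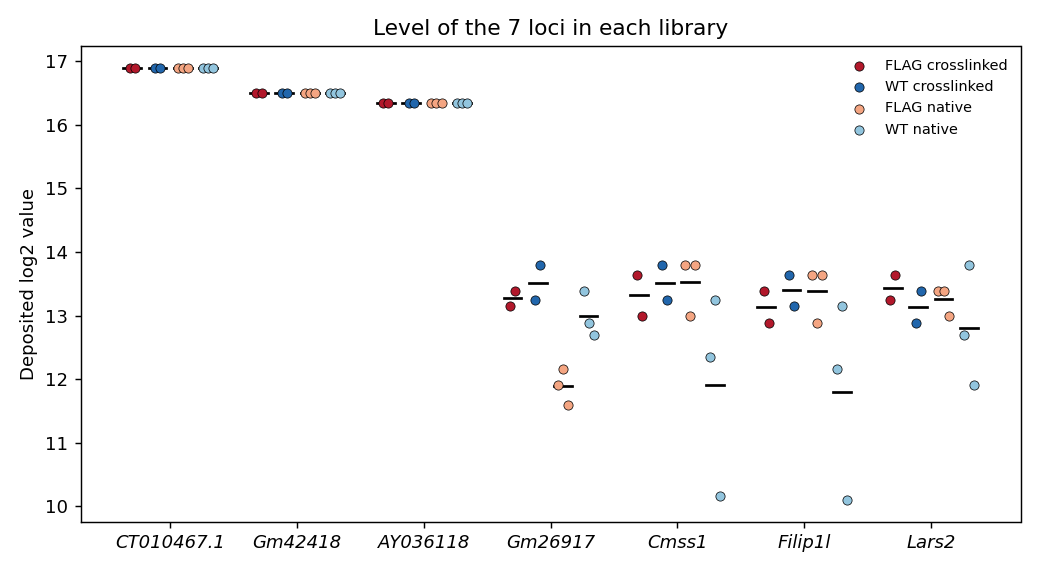
Deposited log2 value of the 7 loci in each of the 10 libraries; points are libraries and black lines are group means. CT010467.1, Gm42418 and AY036118 have the same value everywhere, Gm26917 is lowest in the 3 FLAG native libraries, and Cmss1 and Filip1l are lowest in 1 WT native library.

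The rows next to these loci were much lower. Tbc1d23 and Dcbld2, the nearest genes of the matrix on each side of Cmss1, had mean log2 values of 4.41 and 6.15. Limd1, 16040 nt beyond Lars2, had 4.72, and Exosc7, the nearest on its other side, had 3.27. The nearest rows to the chromosome 17 cluster, Gabbr1 and Cenpq, lay over 1 Mb away and had 4.80 and 1.95.

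Of the 4 loci whose values can vary, Gm26917 was the 1 called between protocols. In the crosslinked libraries it had log2 values of 13.16 and 13.39 with FLAG and of 13.24 and 13.79 with WT. In the native libraries it had 11.91, 12.16 and 11.59 with FLAG and 13.39, 12.88 and 12.70 with WT. The 3 FLAG native values lay under those of all other libraries, while the WT native values overlapped with the crosslinked ones. Over all 10 libraries Gm26917 was lower in native than in crosslinked IPs by a log2 difference of -0.96 ± 0.22 (SE), 1.94-fold, with an adjusted p of 0.0367 in limma and an exact permutation p of 0.02 (two-sided, 100 arrangements within genotype). In this comparison 4.11% of the 15899 genes were called (adjusted p below 0.05 and absolute log2 difference over 0.58), and 1 of the 4 loci that can be tested was. Libraries of the same genotype and number deviated together between the protocols, and with a block for each of these pairs, added after seeing the data, the difference was -0.81 ± 0.24 with an adjusted p of 0.138, past the threshold no longer, where 2.8% of all genes were called. It was also past it no longer when any 1 of FLAG crosslinked 1 or 2, WT crosslinked 2, FLAG native 1 or 3, or WT native 2 or 3 was left out (-0.97 to -0.81, with 1.48% to 4.73% of all genes called).

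Within the FLAG libraries the native values of Gm26917 were lower than the crosslinked ones with no overlap (-1.39 ± 0.21, 2.62-fold, limma adjusted p = 0.142, 0.0692% of all genes called), whereas in WT they overlapped (-0.52 ± 0.30, adjusted p = 0.559, 0.0377% called). Neither passed the threshold. Within FLAG alone, the block for the library number brought Gm26917 past it (-1.24, adjusted p = 0.0101), as did leaving out FLAG native 2 (-1.53, adjusted p = 0.0238), but these settings also called 2.73% and 6.09% of all genes. The difference between the genotypes in this contrast was -0.87 ± 0.37, with an unadjusted p of 0.043 and an adjusted p of 0.970 in limma, so a difference between FLAG and WT in the effect of the protocol was not shown.

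FLAG native 1 and FLAG native 3 differ from the other libraries at the low end of the table, with 329 and 178 genes tied at their lowest value against at most 3 elsewhere. With both left out, an alternative chosen after seeing the data, the protocol difference of Gm26917 was -0.74 ± 0.22 (adjusted p = 0.0974, 3.87% of all genes called). FLAG native 2, which is not among them, had a Gm26917 value of 12.16, still under every WT native and crosslinked library. The part of the tied values in the result was not tested.

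The annotated mitochondrial rRNAs moved the other way. The highest 18 values are fixed, so a gene that rises into these ranks pushes others down. The directions are thus not independent, and the share of this in the values of Gm26917 was not tested. The differences given here come from the fit without pairs. mt-Rnr1 had log2 values of 9.77 to 9.93 in the 4 crosslinked libraries and 10.62 to 12.70 in the 6 native ones. mt-Rnr2 had 10.22 to 10.59 and 11.77 to 13.39. For both genes every native library was above every crosslinked library, by 2.05 ± 0.29 for mt-Rnr1 (limma adjusted p = 0.00345) and 2.37 ± 0.24 for mt-Rnr2 (adjusted p = 0.000918), or 4.14-fold and 5.16-fold. Of the 8 rRNA genes of the matrix outside the cluster, which are these 2 and 6 5S rRNA genes, 3 (37.5%) were called higher in native IPs and none lower, where 2.94% of all genes were called higher and 1.17% lower. The third was n-R5s98, a 5S gene with low values (1.23 ± 0.29, adjusted p = 0.0391). The median difference of the 8 was 2.21, against -0.06 for all genes.

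**Figure D3:**
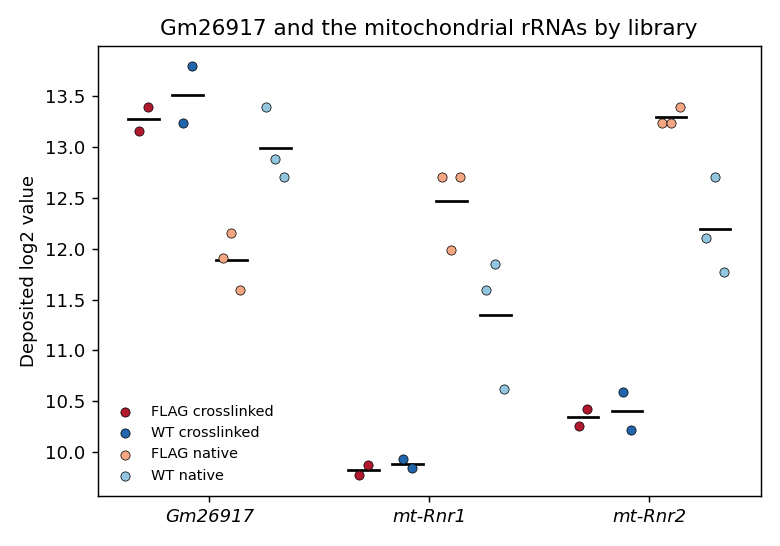
Deposited log2 values of Gm26917, mt-Rnr1 and mt-Rnr2 in each library; points are libraries and black lines are group means. Native values of the 2 mitochondrial rRNAs lie above all crosslinked values, and the FLAG native values of Gm26917 lie below.

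Of 42 genes for RNA polymerase I and rRNA processing, 5 (11.9%) were called between protocols, against 4.11% of all genes. Of these, 4 were higher in native IPs (Nop10, 2.16 ± 0.41, adjusted p = 0.0151; Imp3, 1.78 ± 0.38, 0.0253; Utp3, 1.08 ± 0.21, 0.0176; Nhp2, 0.91 ± 0.19, 0.021) and 1 was lower (Taf1d, a subunit of the polymerase I selectivity factor, -1.16 ± 0.24, 0.0239), all by limma. Nop10 and Nhp2 are proteins of the H/ACA particles that guide pseudouridylation, and Utp3 and Imp3 take part in small subunit processing. The 4 higher genes had low means, from 0.03 for Imp3 to 1.88 for Nhp2, against a median of 2.84 for all genes. Values of Imp3 and of Taf1d overlapped between protocols, and these fits had no block for pairs. The median difference of the 42 genes was -0.03, close to that of all genes. Of 15 other mitochondrial aminoacyl-tRNA synthetases, the enzymes that load tRNAs with amino acids and the family of Lars2, none was called (median -0.21).

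FLAG over WT is the comparison for which the experiment was made, since RNA bound by MEX3A should be higher with FLAG. None of the 4 loci that can be tested was called in it, against 0% of all genes in the crosslinked libraries (where 1225 genes had an unadjusted p below 0.05 in limma), 0.107% in the native ones and 0.497% over all libraries. Gm26917 was lower in FLAG in native IPs with no overlap (-1.11 ± 0.23, 2.15-fold, limma adjusted p = 0.168) and differed little in crosslinked ones (-0.24 ± 0.27, adjusted p = 0.864). Without FLAG native 2 the native difference passed the threshold (-1.24, adjusted p = 0.0143), in a setting that called 19.9% of all genes. Over all libraries it was -0.76 ± 0.22 with an adjusted p of 0.121 in limma and an exact permutation p of 0.0333 (two-sided, 120 arrangements within protocol). With array weights, which give less weight to libraries with larger residuals, the native difference was -1.35 and was called (adjusted p = 0.012, 22.5% of all genes called), while that over all libraries was -0.0796 (adjusted p = 0.735). Without FLAG native 1 and 3 the difference over all libraries was -0.49 (adjusted p = 0.4915). In the same native libraries mt-Rnr2 had 13.24, 13.24 and 13.39 with FLAG and 12.11, 12.70 and 11.77 with WT. None of the 8 other rRNA genes was called between FLAG and WT over all libraries.

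Cmss1 and Filip1l had nearly parallel values. Cmss1, named as a homologue of a yeast protein of the small ribosomal subunit pathway, is a gene of 304627 nt on the minus strand of chromosome 16 (chr16:57302199-57606825). Filip1l, for filamin A interacting protein 1-like, is a gene of 220034 nt on the plus strand (chr16:57353093-57573126) whose body lies wholly within that of Cmss1. The merged exons of the 2 genes share 0 bases. Cmss1 had log2 values of 13.64 and 13.00 in FLAG crosslinked, 13.79 and 13.24 in WT crosslinked, 13.79, 13.00 and 13.79 in FLAG native and 12.35, 13.24 and 10.15 in WT native libraries. Filip1l had 13.39 and 12.88, 13.64 and 13.16, 13.64, 12.88 and 13.64, and 12.16, 13.16 and 10.10 in the same order. In 9 of 10 libraries Filip1l came at the rank just under Cmss1, and in WT native 3 they were at ranks 65 and 68, their lowest.

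The difference between both genes stayed between 0.06 and 0.25 on the log2 scale (SD 0.0568, n = 10 libraries). In the 9 libraries where they were neighbours, this gap is that between adjacent ranks, whose values are the same in every library. Of 430 pairs with 1 gene inside another on the opposite strand, both with means above the median, 23 had a smaller SD. The median SD of these pairs was 0.315. Pearson's r between Cmss1 and Filip1l was 0.999 over the 10 libraries, which share the normalization. It was 0.731 between Cmss1 and Lars2, 0.745 between Filip1l and Lars2, -0.13 between Cmss1 and Gm26917 and 0.05 between Lars2 and Gm26917, as description only. Cmss1, Filip1l and Lars2 were each lowest in WT native 3 (10.2, 10.1 and 11.9), and r without that library was not computed.

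**Figure D4:**
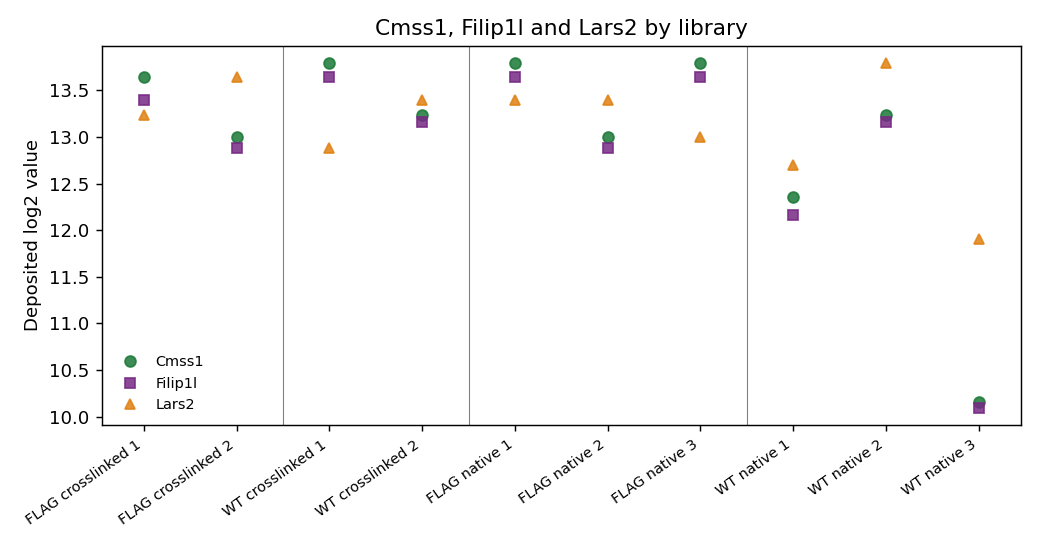
Deposited log2 values of Cmss1 (circles), Filip1l (squares) and Lars2 (triangles) in each library, with grey lines between the groups. Filip1l lies just under Cmss1 in all 10 libraries, and both are at about 10 in WT native 3.

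In native IPs the FLAG minus WT differences of Cmss1 and Filip1l were 1.61 ± 0.66 and 1.59 ± 0.65 on the log2 scale, but values overlapped and the limma adjusted p was 0.281 for both. In crosslinked IPs they were -0.19 ± 0.34 and -0.26 ± 0.30 (adjusted p = 0.921 and 0.864). Over all libraries the differences were 0.89 ± 0.55 and 0.85 ± 0.54 (adjusted p = 0.344 and 0.357), with exact permutation p of 0.217 and 0.267. This size depended on the libraries kept. Without WT native 3 the differences were 0.31 ± 0.29 and 0.28 ± 0.29. Without FLAG native 1 and 3, left out after seeing the data, they were 0.36 and 0.31. Between protocols Cmss1 differed by -0.70 ± 0.56 (adjusted p = 0.538) and Filip1l by -0.67 ± 0.55 (adjusted p = 0.550), and without WT native 3 by -0.22 and -0.20. Within WT the protocol differences were -1.60 ± 0.86 and -1.60 ± 0.84, and within FLAG 0.20 ± 0.31 and 0.25 ± 0.29. The genotypes differed in this contrast by 1.80 ± 1.02 and 1.85 ± 0.99 (limma adjusted p = 0.970 for both), so such a difference was not shown. For Cmss1, the 95% interval of the protocol difference in the fit without pairs ran from -1.93 to 0.54, which is too wide to show that protocols act alike. With the block within genotype the differences were -0.32 ± 0.27 for Cmss1 and -0.31 ± 0.28 for Filip1l (limma adjusted p = 0.539 and 0.579).

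Lars2, the mitochondrial leucyl-tRNA synthetase, is a plus-strand gene of 95740 nt at chr9:123366927-123462666. It had log2 values of 13.24 and 13.64 in FLAG crosslinked, 12.88 and 13.39 in WT crosslinked, 13.39, 13.39 and 13.00 in FLAG native and 12.70, 13.79 and 11.91 in WT native libraries. The groups overlapped in every comparison, and WT native 3 was again the lowest. Lars2 differed by 0.40 ± 0.30 between FLAG and WT (limma adjusted p = 0.420, 95% interval -0.26 to 1.05) and by -0.26 ± 0.30 between native and crosslinked IPs (adjusted p = 0.690). Array weights brought the FLAG difference of Lars2 past the threshold (0.70, adjusted p = 0.00716) along with 13% of all genes called. Without WT native 3 the difference was 0.15 ± 0.23, and without WT native 2 it was 0.66 ± 0.23 (limma adjusted p = 0.194). These are the ends of its range with 1 library left out.

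**Figure D5:**
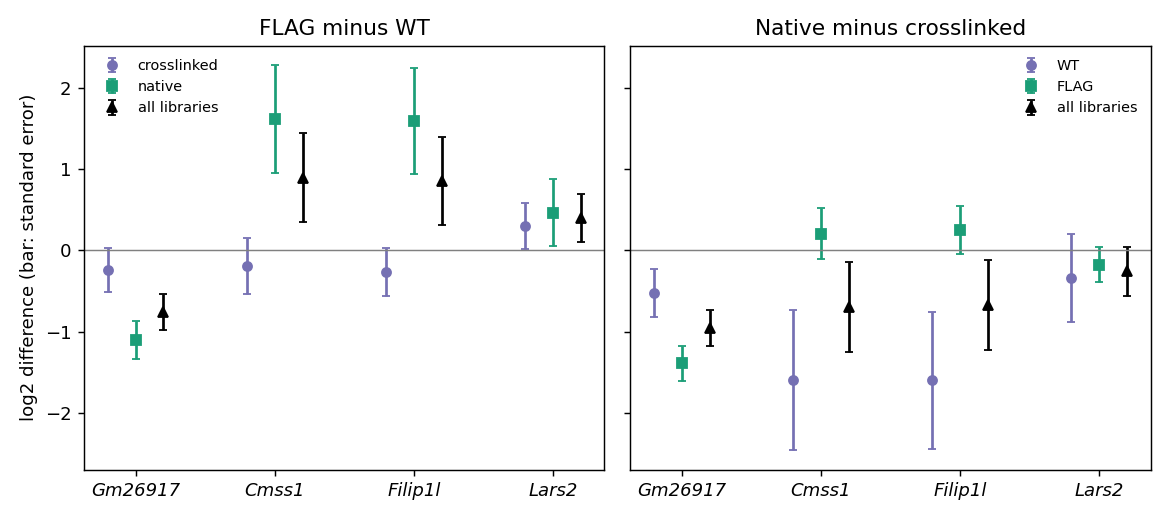
Log2 differences of the 4 loci whose values can vary, FLAG minus WT (left) and native minus crosslinked (right), in each subset and over all libraries; bars are standard errors from limma. Gm26917 is below 0 in all 6 contrasts, and Cmss1 and Filip1l have the widest errors where WT native libraries enter.

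Among other genes with means above the median, those most like Gm26917 over the 10 libraries were Vps13b (r = 0.958), Uhrf2 (0.938) and Rfx3 (0.937), with mean log2 values of 7.21, 6.28 and 7.62. Cmss1 was closest to Hdac3 (0.955), Zc3h7a (0.953) and Gm23935 (0.931), and Filip1l to Hdac3 (0.954), Zc3h7a (0.941) and Rn7sk (0.936), the 7SK RNA. Hdac3 and Zc3h7a were also lowest in WT native 3 (2.96 and 8.45). Lars2 was closest to H3f3a (0.941), Aen (0.932) and Naxd (0.910). No gene on these lists was shared between Gm26917 and the others. CT010467.1, Gm42418 and AY036118 have no variance and thus no such genes.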

How the data were processed

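RNA from anti-FLAG IPs of 10 neurosphere libraries was sequenced and, per the labels and methods, trimmed (cutadapt, Trimmomatic), aligned with HISAT2 to GRCm38, and counted with featureCounts and filtered for low genes; the labels also name limma, with no role. The authors' methods name DESeq2 for the normalization of the counts. The deposited values are log2, and their top values are identical in all libraries, as quantile normalization leaves them, a step the methods do not name. Counts and depth per library are unknown. Here, log2 values were tested with limma 3.58.1 (trended moderation, Benjamini-Hochberg over 15899 genes), within each protocol or genotype and over all libraries with the other factor as covariate. The limma script was tested on simulated data. Loci were aligned with blastn 2.17.0, with exons from GENCODE M21. Named genes are the members, their 3 closest genes by correlation, adjacent rows and 3 lists. Members and lists were chosen with earlier results of these data known. Deviations of same-numbered libraries correlated at 0.15 to 0.39 between protocols (4 pairs over both genotypes) and at -0.43 to -0.15 between genotypes. The former were taken as pairs in the fits with a block only. The main fits and the exact permutation tests leave the pairs out, and the differences of the listed genes come from the main fits. Each genotype has 2 crosslinked libraries, whose deviations mirror each other, so its pairs are not independent. Alternatives covered replicates, blocks, weights, moderation, pseudocounts, filters and scaling.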

Additional observations from a re-analysis of the deposited data

How the results depend on the processing

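The calls of the loci depended on the setting for Gm26917 and once for Lars2. Between protocols over all libraries, Gm26917 was the 1 locus called, and 0 were called with array weights (-0.63, adjusted p = 0.0556; 12.8% of all genes called), with the replicate block (-0.81, adjusted p = 0.156; 1.92%), with the replicate block within genotype (-0.81; 2.8%) or without the 2 libraries with the most tied lowest values (-0.74; 3.87%), against 4.11% as reported. With 1 library left out, 0 or 1 were called and its difference ran from -1.16 to -0.81, with 7 of 10 past the threshold no longer. In FLAG alone, 1 locus was called between protocols with array weights (-1.54, 6.49% of all genes called) and with the replicate block (2.73%), and 0 to 1 with 1 library left out. Between FLAG and WT, 1 was called with array weights in native libraries (Gm26917, -1.35; 22.5% of all genes called) and over all libraries (Lars2, 0.70; 13%), and 0 to 1 in native libraries with 1 left out. Array weights moved Gm26917 to -0.0796 and turned Cmss1 to -0.35 and Filip1l to -0.34 between FLAG and WT. Both replicate blocks turned the protocol difference of Lars2 to 0.0301, and leaving out 1 library moved it between -0.48 and -0.05; its difference of the protocol contrast between genotypes ran from -0.29 to 0.66. The cause was not tested. The replicate block changed no other call of these loci. FLAG and WT share only numbers; crossing the WT crosslinked numbers left 0 loci and 0 genes called.

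Genes called over the whole matrix moved more: between FLAG and WT from 0 to at most 4 (crosslinked), from 17 to 0 to 3577 (native) and from 79 to 13 to 2069 (all libraries), and between protocols from 6 to 2 to 202 (WT), from 11 to 0 to 1032 (FLAG) and from 653 to 197 to 2028 (all libraries). Genes with a match to the cluster were 2, 1 at 95% over 75 bases, 0 in exons and 0 with the partial 28S record. Where an arm was left with 1 library, it was assumed to vary like the others. Depth is unknown, and values at the highest ranks carry no size beyond their rank.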
